A study of Mus musculus with 2 samples.

Results

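Genes of the Wnt, Notch, Hippo and TGF-beta pathways were examined for N6-methyladenosine (m6A), a methyl mark that is common inside messenger RNAs, in pancreatic islets of young mice. The list holds 44 genes, 21 of the Wnt, 11 of the Notch, 5 of the Hippo and 7 of the TGF-beta pathway, chosen by name among the 21900 protein-coding genes of the RefSeq annotation. At least 1 site was listed on 24 of them, with 47 of the 8987 sites of the whole list. No site was listed for the other 20.

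The islets came from 129sv mice at 2 weeks of age, for which the labels give no further genotype or treatment. Fragmented RNA was pulled down with a polyclonal antibody against m6A to give 1 immunoprecipitate library, and RNA that was not pulled down gave 1 input library. The comparison of the immunoprecipitate with the input asks which RNA stretches carry the modification. There are no replicates, so no value below has an error across samples or a test.

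These pathways pass signals from the cell surface to the nucleus. Wnt proteins bind Frizzled and LRP receptors, which stops the Axin and APC complex from destroying beta-catenin, so that beta-catenin can join TCF factors on DNA. Notch receptors are cut after a neighbouring cell presents a Jagged or Delta ligand, and the freed domain joins RBPJ. In the Hippo pathway LATS kinases keep the coactivators YAP and TAZ out of the nucleus and away from TEAD factors, and in the TGF-beta and BMP pathways receptor kinases phosphorylate SMAD proteins. In the pancreas Notch restrains endocrine differentiation of progenitors, YAP is silenced as endocrine cells form, and TCF7L2 is a known risk gene for type 2 diabetes in humans.

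The values of a site are those of the authors' peak caller, printed as deposited. The fold is the signal of the immunoprecipitate divided by the background that was expected, on a linear scale. The score is the negative log10 of p, multiplied by 10, and thus equals 100 at a p of 1e-10. The false discovery rate (FDR) is given in percent, read as such from its name and its values. Across the whole list the quartiles of the fold were 5.47 and 9.87 around a median of 7.13, and no site had an FDR below 27.16%. Neither read depth nor the level of a gene in the input is known here, so a gene without a site may carry no m6A or may be too weakly expressed to show it. The list may also hold only a part of the sites called, since its peak numbers run up to 90659. In bulk islets, fewer cells of a type and less RNA per cell cannot be told apart.

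Of the 10 islet endocrine markers, the granins Chga (fold 27.48) and Chgb (21.38) and the beta cell factor Mafa (12.52) had sites, and the hormone genes Ins1, Ins2, Gcg, Sst, Ppy and Iapp and the factor Pdx1 had none. Sites were listed on 6 of 10 endothelial, 6 of 10 duct, 2 of 10 acinar, 4 of 10 fibroblast and stellate and 1 of 10 leukocyte markers. The share over all protein-coding genes was 22.2%, so the islet endocrine and acinar counts are near it and the leukocyte count is below it. Among the signalling genes, Notch4 and Dll4, both typical of endothelium, had none. Which cells the RNA of the signalling genes came from was not tested.

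Sites at the start of the transcript were found on Dvl1, Dvl3, Tcf7l1, Tle1 and Tle3, all in the Wnt pathway. A start could be looked for on only 13 of the 24 genes with a site. Sites on the other 11 may cover one too, since those on Fzd3, Lrp5, Tead1, Smad4 and Smad7 reach to or near an end of the gene. The sequences at the 5 starts found are shown because they are the parts of the sites whose bases were at hand. Each runs from 100 bases before the annotated start to 30 bases after it, 5′ to 3′ on the strand of the gene, from RefSeq on GRCm38.p6. Capitals mark the bases that lie inside the listed site.
Dvl1, chr4:155847302-155847431, plus strand: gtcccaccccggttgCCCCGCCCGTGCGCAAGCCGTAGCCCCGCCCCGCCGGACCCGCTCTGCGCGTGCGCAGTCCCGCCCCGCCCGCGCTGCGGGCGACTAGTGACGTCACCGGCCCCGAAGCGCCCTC
Dvl3, chr16:20516886-20517015, plus strand: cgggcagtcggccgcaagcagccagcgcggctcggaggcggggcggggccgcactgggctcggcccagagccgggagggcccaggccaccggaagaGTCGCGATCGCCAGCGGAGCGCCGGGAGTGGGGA
Tcf7l1, chr6:72789016-72789145, minus strand: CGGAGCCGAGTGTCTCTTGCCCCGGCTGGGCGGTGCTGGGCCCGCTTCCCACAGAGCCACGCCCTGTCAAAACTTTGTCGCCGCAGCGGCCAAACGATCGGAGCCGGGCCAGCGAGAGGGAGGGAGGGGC
Tle1, chr4:72200864-72200993, minus strand: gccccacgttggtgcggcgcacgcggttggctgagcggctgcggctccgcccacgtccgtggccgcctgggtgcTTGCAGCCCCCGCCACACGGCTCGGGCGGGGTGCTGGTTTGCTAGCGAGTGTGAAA
Tle3, chr9:61372266-61372395, plus strand: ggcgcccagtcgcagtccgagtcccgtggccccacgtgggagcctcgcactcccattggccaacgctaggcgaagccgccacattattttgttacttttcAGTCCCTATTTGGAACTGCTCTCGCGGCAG

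The edge of the site lay exactly on the annotated start in Tle3, 4 bases before it in Dvl3 and 26 bases before it in Tle1. It reached further ahead in Dvl1, by 85 bases, and in Tcf7l1, by 209 bases. The start used here is the one in the table of start sequences. In Dvl1 and Tcf7l1 it is also the outermost base of the annotated gene span, whereas in Dvl3, Tle1 and Tle3 the span begins further upstream, and there the sites begin 33, 70 and 40 bases inside it. The core of the preferred m6A context, the letters GGAC, occurred in 0 of the 5 genes within the first 50 transcribed bases, and its reverse complement GTCC in 1, Tle3. Of 32851 start windows in the RefSeq table, 18.9% held GGAC and 17.4% GTCC in the same stretch. Within the 130 bases shown, GGAC was found only in Dvl1, ahead of the start and inside the site, against 37.7% of all windows over the same range. GTCC was found in 3 of the 5 over that range, Dvl1, Tle1 and Tle3, also against 37.7% of all windows. The greater part of these 5 sites lies further into the gene, from 336 transcribed-side bases in Tcf7l1 to 1096 in Tle3, and its sequence was not analysed here. Antibodies against m6A are also known to bind the related mark m6Am next to the cap, and the marks cannot be told apart at a transcript start in these data.

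Sites were listed on 54.5% of the 44 signalling genes, against 22.2% of all protein-coding genes. Their spans are long, with quartiles of 26.4 and 102 kb, and among the protein-coding genes with a span between those quartiles 34.2% had a site. By pathway the count was 14 of 21 for Wnt, 3 of 11 for Notch, 3 of 5 for Hippo and 4 of 7 for TGF-beta. Among the 44, the Notch genes were thus the closest to the background, and the Wnt genes the farthest above it. Of other genes of the same pathways, described below, 48.8% of the Notch and 29.3% of the Wnt genes had a site. Signalling genes with a site had a median span of 66.8 kb, and those without a site 36.4 kb. Of the 8 genes that span less than 12 kb, 2 had a site, Dvl1 and Dll1, and the ones without were Fzd1, Fzd4, Fzd7, Dvl2, Dll4 and Hes1. Of the 12 genes that span more than 100 kb, 7 had a site, and the 5 without were Notch2 (137 kb), Lef1 (114 kb), Bmpr2 (114 kb), Smad3 (111 kb) and Rbpj (102 kb), so long genes were found on both sides.

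**Figure D1:**
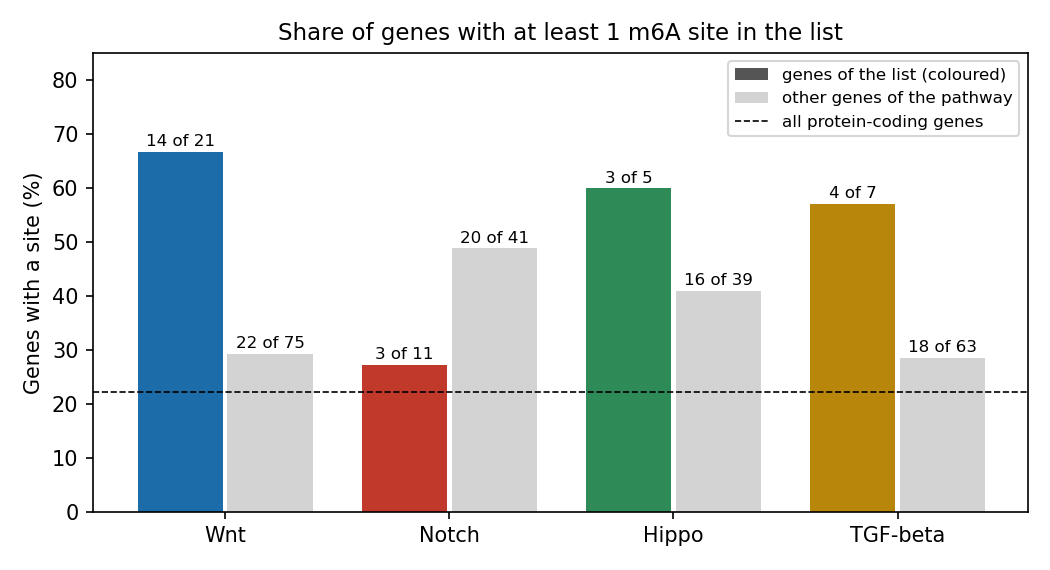
Share of genes with at least 1 m6A site in the list (%), for the signalling genes described here (coloured bars) and for other genes of the same pathway (grey bars), with the number of genes above each bar. The dashed line is the 22.2% of all protein-coding genes; 14 of 21 Wnt genes stand highest above it, and 3 of 11 Notch genes stand nearest to it.

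Enrichment on these genes was moderate. The 47 sites ranged from 2.86 to 18.13 in fold around a median of 6.67 (quartiles 5.45 and 9.05), and 20 of them lay above the median of 7.13 of the whole list. Taking the strongest site of each gene, the median was 7.87 over the 24 signalling genes and 8.1 over all genes with a site. The largest fold of the whole list was 449.81. The highest here, 18.13 on Dvl1, lay at percentile 94.8 of all sites, and the 2 strongest Lats2 sites at 94.3 and 94.4. A strongest fold of at least 10 was reached by 9 of the 24, Dvl1, Lats2, Dvl3, Tcf7l2, Bcl9l, Fzd3, Wwtr1, Lrp5 and Tcf7l1, and by 34.1% of all genes with a site. On Fzd3, Lrp5 and Tcf7l1 it lay on a site with a score below 100 (89.53, 80.46 and 82.23). With sites of a score of at least 100, Fzd3 had none, and the strongest fold was 6.84 on Lrp5 and 8.72 on Tcf7l1.

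**Figure D2:**
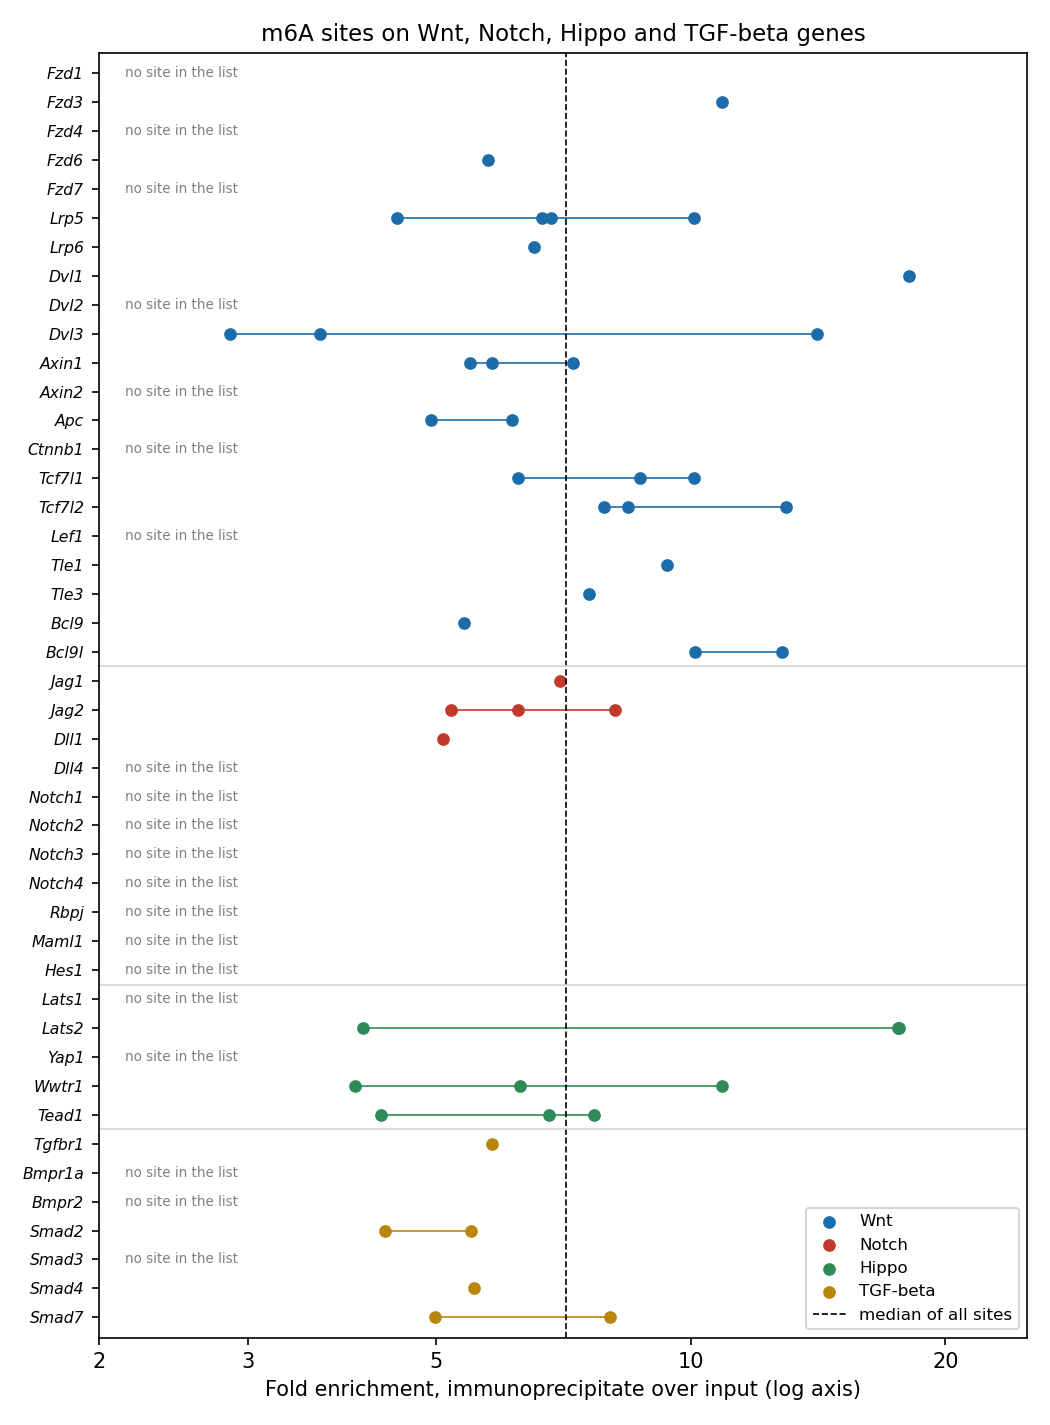
Fold enrichment of the immunoprecipitate over the input (log axis) for each of the 47 sites on the 44 signalling genes, a point per site, with a line joining the weakest and strongest site of a gene. Genes without a site are marked as such; the dashed line is the median fold of 7.13 of all 8987 sites, and Dvl1 (18.13) and Lats2 (17.65) reach farthest to the right.

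Among the receptors of Wnt, the coreceptor Lrp5 had 4 sites, the largest number on any of the 44 genes, and its close relative Lrp6 had 1. The folds on Lrp5 were 6.84, 10.08, 4.5 and 6.67 in the order of the coordinates on chromosome 19. They formed 2 groups of neighbours, with gaps of 1091 and 1629 bases inside the groups and 41792 bases between them. The strongest was also the shortest of all 47 sites, with 98 bases at 3586383 to 3586480. The Lrp6 site had a fold of 6.54 and covered 210 bases (chromosome 6, 134464395 to 134464604).

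Of the 5 Frizzled receptors, Fzd3 and Fzd6 had 1 site each, and Fzd1, Fzd4 and Fzd7 had none. The fold was 10.89 on Fzd3 (chromosome 14, 65262332 to 65262463) and 5.76 on Fzd6 (chromosome 15, 39034808 to 39035227). The Frizzled genes without a site are compact, with spans from 4.38 to 5.75 kb, whereas Fzd3 spans 70.0 kb and Fzd6 32.0 kb. The Fzd3 site ended on the outermost base of the gene.

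Inside the cell, the Dishevelled proteins relay the signal from Frizzled. Dvl1 carried the highest fold of the 44 genes, 18.13, on a site of 588 bases at chromosome 4, 155847317 to 155847904, with a score of 531.56 and an FDR of 71.22%. That fold lies at percentile 91.5 of the strongest folds of all genes with a site. Dvl3 followed with a fold of 14.12 on 374 bases at chromosome 16, 20516982 to 20517355, with a score of 464.35. Both sites cover the start of the transcript, as the sequences above show. Dvl3 had a further 2 sites within the gene, with folds of 2.86 and 3.65, the lowest of all 47, and Dvl2 had none.

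In the beta-catenin destruction complex the scaffold Axin1 had 3 sites, with folds of 5.49, 5.83 and 7.27, and Apc, the tumour suppressor that works with it, had 2, with folds of 4.94 and 6.16. The strongest Axin1 site covered 518 bases at chromosome 17, 26187704 to 26188221. All 5 sites had an FDR of 100%. Axin2, the other Axin, which Wnt signalling itself induces, had no site, and neither had Ctnnb1, which encodes beta-catenin.

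Of the DNA-binding partners of beta-catenin, Tcf7l1 and Tcf7l2 had 3 sites each and Lef1 had none. Tcf7l2 had folds of 7.9, 12.95 and 8.44 on short sites of 141, 160 and 216 bases, all between 91.5% and 95.0% of the way from the 5′ to the 3′ end of a gene of 192 kb. The middle site, at chromosome 19, 55918885 to 55919044, had a score of 424.55 and an FDR of 80.23%. Tcf7l1 had folds of 8.72 and 6.26 on a pair of sites 581 bases apart, the closest of all, at 97.0% and 96.5% of its span. The remaining site, with a fold of 10.08, lay at the other end, over the transcript start. The sites of Tcf7l2 thus gathered near the 3′ end, and those of Tcf7l1 at both ends.

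The corepressors of the TLE (Groucho) family, which hold TCF targets silent, had 1 site each, and both covered the transcript start. Tle1 had a fold of 9.38 on 938 bases (chromosome 4, 72199982 to 72200919), and Tle3 a fold of 7.59 on 1096 bases (chromosome 9, 61372366 to 61373461). The Tle3 site had the highest score of the 47, 804, and the lowest FDR, 63.56%, although its fold ranked only at percentile 54.9 of all sites. The beta-catenin adaptors Bcl9 and Bcl9l both had long sites. On Bcl9l, folds of 10.13 and 12.82 were listed, and the stronger site covered 2287 bases, the longest of the 47, at chromosome 9, 44505584 to 44507870. The Bcl9 site was nearly as long, at 2239 bases, with a fold of 5.4 at 93.7% of the span.

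Among the 11 Notch genes chosen by name, only ligands had sites. These were 3 of the 11 genes (27.3%), against 22.2% of all protein-coding genes. Jag1, Jag2 and Dll1 had sites, whereas Dll4, all 4 receptors (Notch1, Notch2, Notch3 and Notch4), the DNA-binding factor Rbpj, its coactivator Maml1 and the target gene Hes1 had none. The fold was 7.02 on Jag1 (chromosome 2, 137082892 to 137083481) and 5.1 on Dll1 (chromosome 17, 15368367 to 15368999). Jag2 had 3 sites, with folds of 6.26, 5.21 and 8.15 in the direction of transcription, at 3.4%, 43.0% and 94.6% of the span. The single sites of Jag1 and Dll1 and the strongest of Jag2 all lay towards the 3′ end, between 86.1% and 95.1% of the span and between 787 and 1441 bases from the annotated 3′ end. Each of the 5 ligand sites had an FDR of 100%, and none of them had a score above 113.86. With sites of a score of at least 100, only Jag2 was left. The limit to ligands holds for these 11 genes only. Of the 41 other Notch genes described below, 20 had a site, among them Ncor1, Spen and Psen2, which are not ligands.

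Among the Hippo genes, each of the paralogous pairs was split. Lats2 had 3 sites and Lats1 had none; Wwtr1, which encodes TAZ, had 3 sites and Yap1 had none. A neighbouring pair of sites on Lats2, 1759 bases apart, had folds of 17.65 and 17.56, next only to Dvl1 among the 44 genes. The first covered 1301 bases at chromosome 14, 57699258 to 57700558, with a score of 689.75 and an FDR of 64.87%, and the second 583 bases at 57696916 to 57697498, with an FDR of 82.26%. The last Lats2 site, 1119 bases from the 3′ end of the gene, had a fold of 4.1.

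Wwtr1 had folds of 4.01, 10.89 and 6.28 in the direction of transcription, at 61.6%, 81.9% and 94.2% of a span of 120 kb. The middle site, with 200 bases at chromosome 3, 57477357 to 57477556, was the strongest. Tead1, the DNA-binding partner of both coactivators, had folds of 7.7, 6.81 and 4.31 on sites spread over 227 kb. Its middle site (chromosome 7, 112759384 to 112759639) had an FDR of 88.38%, and its first began 38 bases outside the annotated span.

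In the TGF-beta and BMP group the type I receptor Tgfbr1 had 1 site, with a fold of 5.83 (chromosome 4, 47396355 to 47396585), and the BMP receptors Bmpr1a and Bmpr2 had none. Of the SMAD proteins that receptors activate, Smad2 had 2 sites, with folds of 4.36 and 5.5, and Smad3 had none. The shared partner Smad4 had a fold of 5.55 on a site that ended 11 bases from an end of the gene. The inhibitor Smad7 had a fold of 4.99 at chromosome 18, 75367365 to 75369568, and of 8.03 at 75393827 to 75395880. Both Smad7 sites exceeded 2000 bases and reached to within 55 bases of an end of the gene, the first exactly to its outermost base. Apart from the 8.03 on Smad7, the sites of this group were below the median fold of the whole list, and all 6 had an FDR of 100%. That Smad7 site had a score of only 86.42, so with sites of a score of at least 100 the strongest fold on Smad7 was 4.99.

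The genes with a site held 1.96 sites on average, against 1.81 for all genes with a site. Of the 24, 11 had 1 site, 4 had 2, 8 had 3 and 1 had 4. A share of 37.5% thus had 3 or more, against 18.2% of all genes with a site. With sites of a fold of at least 5, only Lrp5, Axin1, Tcf7l1, Tcf7l2 and Jag2 kept 3. With a score of at least 100, only Lrp5 and Lats2 did. The share over all genes was not computed at these limits, nor for genes of a like span. The median span was 66.8 kb for the 24 genes and 17.1 kb for all protein-coding genes. Sites were also longer, with a median of 374 bases against 211 in the whole list, and 7 of the 47 (14.9%) exceeded 1000 bases, against 9.97% of all sites. These were the sites on Bcl9l, Bcl9, Tle3, Lats2 and Dvl3 and both sites on Smad7.

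The FDR of the peak caller was 100% for 39 of the 47 sites. It was below 100% for 8 sites (17.0%), against 25.7% of all sites. These 8 lay on 7 genes, Tle3, Lats2 (2 sites), Bcl9l, Dvl1, Dvl3, Tcf7l2 and Tead1, with folds from 6.81 to 18.13, so 5 of the 7 belong to the Wnt and 2 to the Hippo pathway. The median score was 117 for the 47 sites and 132 for all sites.

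**Figure D3:**
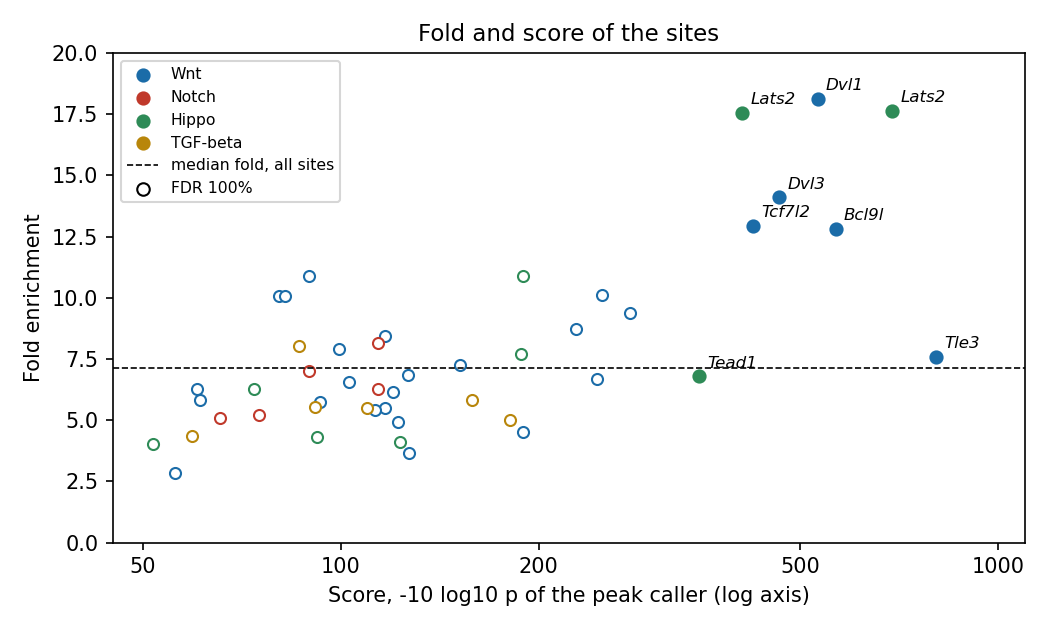
Fold enrichment against score (negative log10 of p, multiplied by 10; log axis) for the 47 sites, coloured by pathway, with filled points for sites of an FDR below 100% and open points for an FDR of 100%. The dashed line is the median fold of all sites, 7.13; the 8 filled sites are named, and Tle3 joins the highest score (804) with a fold of only 7.59.

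Position along the gene could be oriented for 13 of the 24 genes, those in the RefSeq table of start sequences, with 25 sites. For the other 11, Fzd3, Fzd6, Lrp5, Lrp6, Axin1, Apc, Bcl9l, Tead1, Smad2, Smad4 and Smad7, the direction was not analysed. Of the 25 sites, 5 (20%) covered a transcript start, against 19.5% of the 7207 sites of the whole list on genes of known strand. The centre of 10 (40%) lay in the last 10% of the span, against 12.8% in the whole list, and these 10 sites come from 7 genes. The median position of the 25 sites was 81.9% of the span, and 49.7% for the whole list. The centre of 6 (24%) lay in the first 10% of the span, against 25.4% in the whole list; these are the 5 sites over a start and 1 on Jag2. The part of the span between its first and last 10% held the other 9 centres, against 61.8% in the whole list. A gene with several sites contributes several points, so the shares do not rest on independent genes, and no exon, UTR or stop codon was assigned.

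**Figure D4:**
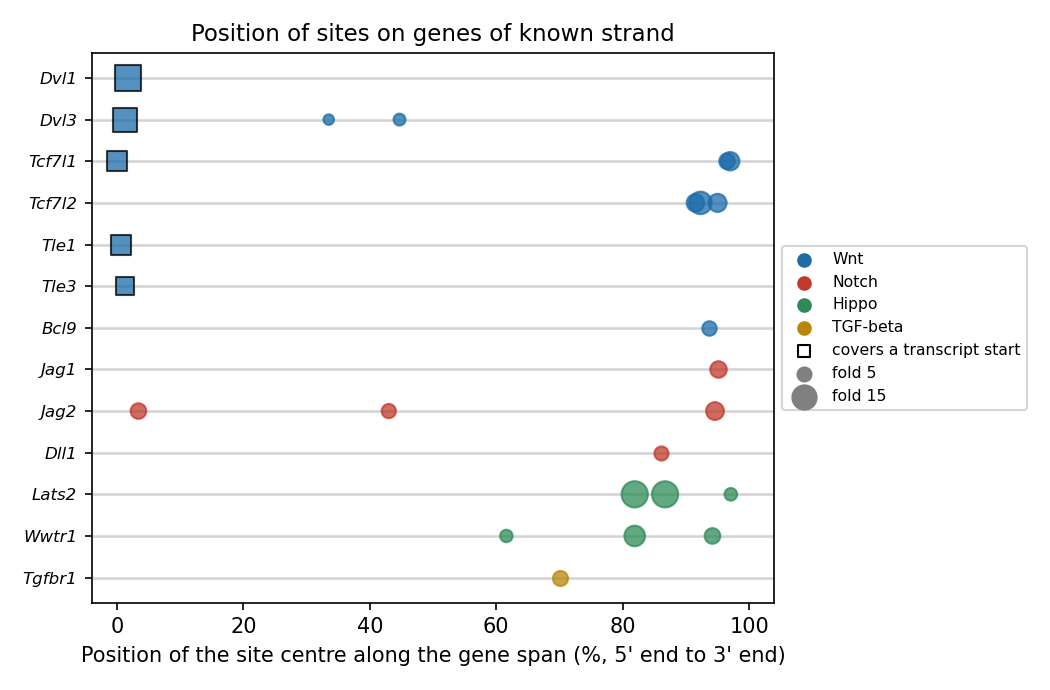
Position of each site centre from the 5′ end (0%) to the 3′ end (100%) of the gene span for the 13 signalling genes of known strand, with area growing with the fold and squares for sites that cover a transcript start. The 5 squares are on Dvl1, Dvl3, Tcf7l1, Tle1 and Tle3, and the sites of Tcf7l2, Lats2, Jag1, Dll1 and Bcl9 lie beyond 80% of the span.

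Sites over a transcript start had higher folds than the rest, both here and in the whole list. The median was 10.08 for the 5 sites and 6.27 for the other 20 of known strand, and in the whole list 8.77 for sites over a start and 6.83 for the others. On the 2 genes with both kinds, Dvl3 and Tcf7l1, the site over the start was the strongest. On Tcf7l1, however, that site had a score of only 82.23. With sites of a score of at least 100, the strongest on Tcf7l1 was the one of 8.72 near the 3′ end. Lats2 ran the other way, with the high folds of 17.56 and 17.65 at 86.7% and 81.9% of the span and none at the start.

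**Figure D5:**
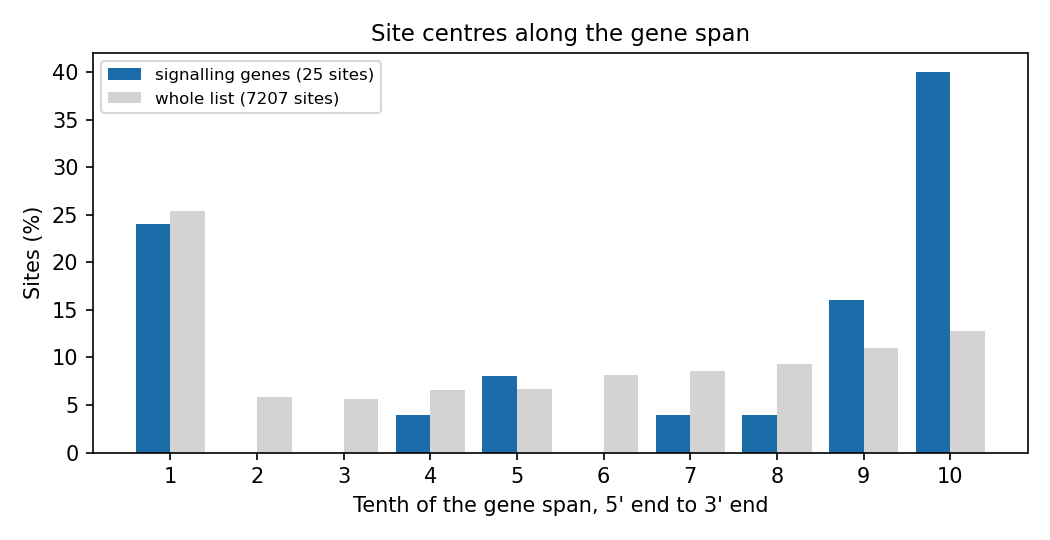
Share of site centres (%) in each of 10 equal parts of the gene span, from the 5′ end to the 3′ end, for the 25 sites on signalling genes of known strand (blue) and for the 7207 sites of the whole list on genes of known strand (grey). The last 10% of the span holds 40% of the signalling gene sites against 12.8% of all sites, and the first 10% holds 24% against 25.4%.

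Other genes of the pathways, beyond the 44, had sites in 76 of 218 cases (34.9%), against 22.2% of all protein-coding genes. Among protein-coding genes with a span between the quartiles of the 44 it was 34.2%, and the spans of the 218 were not compared. Their median strongest fold was 6.96, against 8.1 over all genes with a site. In the Wnt pathway 22 of 75 had a site, led by the R-spondin receptor Lgr4 (fold 17.98), the casein kinase Csnk1d (16.63), the Wnt secretion factor Wls (10.35) and the receptor kinase Ror1 (9.51). Wnt1, Wnt2, Wnt2b and Wnt3, genes of Wnt ligands, were among the 53 without. In the Notch pathway 20 of 41 had a site, among them the corepressors Ncor1 (20.32, 8 sites) and Spen (17.47) and the gamma-secretase subunit Psen2 (15.33), and Dll3, Dlk1, Mfng and Pofut1 were among the 21 without. Sites were thus listed on 27.3% of the Notch genes among the 44, and on 48.8% of those beyond them. For the Wnt genes the shares were 66.7% among the 44 and 29.3% beyond them.

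In the Hippo pathway 16 of the 39 other genes (41.0%) had a site, against the same 22.2% of all protein-coding genes. The kinases upstream of LATS were the strongest, namely Map4k4 (fold 41.28, 6 sites), Stk4, which encodes MST1 (27), and Taok3 (23.99, 5 sites), followed by the striatin Strn4 (19.38). Sav1, Mob1a, Mob1b and Nf2 were among the 23 without. In the TGF-beta pathway 18 of 63 (28.6%) had a site, led by the follistatin-like gene Fstl1 (11.63), the ubiquitin ligases Nedd4l (9.28) and Trim33 (8.53) and the BMP effector Smad1 (7.08). Tgfb1, Tgfb3, Acvr1b and Acvr2a were among the 45 without. Among the 44 genes, the median strongest fold was 10.89 for Hippo (3 genes), 9.73 for Wnt (14 genes), 7.02 for Notch (3 genes) and 5.69 for TGF-beta (4 genes). For the other genes it was 10.21 for Hippo, 6.58 for Wnt, 8.42 for Notch and 5.9 for TGF-beta, so Hippo was the highest and TGF-beta the lowest in both sets.

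The KEGG annotation in the authors' deposited table shows how much these pathways share. It places 10 of the 14 Wnt genes with a site in the Wnt pathway, and all 3 Notch, 3 Hippo and 4 TGF-beta genes with a site in their own pathways. Its Hippo pathway takes in 15 of the 24 genes, among them Apc, Axin1 and the Smad genes, and Dvl1, Dvl3 and Smad4 each stand in 3 of the 4 pathways. Tle1, Tle3, Bcl9 and Bcl9l stand in none. Over all genes with a site that carry the annotation, the median strongest fold was 9.16 for Hippo (50 genes), 8.23 for Wnt (50 genes), 7.84 for Notch (24 genes) and 6.8 for TGF-beta (22 genes). These sets hold genes of the 44, 15 of them in Hippo and 4 in TGF-beta, so their order is not independent of the one above.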

How the data were processed

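Per the labels' protocols and the submitters' processing notes, the authors used cutadapt 1.9.3 for trimming, HISAT2 2.0.4 for alignment and MACS for the calling of sites, which in-house scripts then placed on transcripts. Human HG19 and mouse mm10 are both named as the build. Of the 8942 sites matched to a RefSeq gene of GRCm38.p6, 8924 (99.8%) overlapped its span, so coordinates are given as GRCm38, counted from 1. The deposited fold is a ratio, the deposited score equals 10 times the negative log10 of p, and the deposited FDR is read as percent; none was recomputed. No reads or counts were used.

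All 44 genes were matched by symbol, and all their 47 sites by gene identifier. Strand and transcript starts came from the RefSeq start sequences, and a position is the centre of the site as a share of the gene span. Medians, ranks and counts were computed with Python 3.11.15, pandas 2.3.3 and NumPy 2.4.6, and the code was tested on simulated data. With 1 library per group no test was run. The genes, lists and comparisons were chosen with earlier results of these data known. Every one of the 44 genes is named; of other pathway genes, the 4 with the largest fold, of which 1 is not reported here, and the first 4 without a site. Alternatives were limits on the fold, the score and the FDR, merged intervals, the median fold per gene, matching by name alone, sites wholly within the span and the edge of the site nearest to the 3′ end as its position.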

Additional observations from a re-analysis of the deposited data

How the results depend on the processing

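With 1 library per group no replicate could be left out and no value carries an error. No paired analysis was possible because there is 1 immunoprecipitate and 1 input library, and the deposited values already combine them. Sites of a fold of at least 5 left 24 genes with 38 sites and a median fold of 7.43, against 19.7% of protein-coding genes. With a score of at least 100 there were 19 genes with 30 sites, a median fold of 7.06 and a median strongest fold of 7.7, against 15.4% of protein-coding genes; Dll1, Fzd3, Fzd6, Jag1 and Smad4 were lost, so that 1 Notch gene, Jag2, was left, and 10 other Wnt and 7 other TGF-beta genes. With an FDR below 100% there were 7 genes with 8 sites, a median fold of 13.54 and a median strongest fold of 12.95, against 7.29% of protein-coding genes. Then 5 Wnt, 0 Notch, 2 Hippo and 0 TGF-beta genes remained. Of the other pathway genes, 5 of 75 Wnt, 5 of 41 Notch, 7 of 39 Hippo and 3 of 63 TGF-beta genes remained, so the Wnt and TGF-beta shares fell below the 7.29%. These limits keep fewer sites by construction. The median fold per gene in place of the strongest gave a median of 6.53, and the edge nearest to the 3′ end in place of the centre a median position of 83.0%. A fold of at least 10 (9 genes) and leaving out sites over a transcript start (21 genes, median strongest fold 7.27) were chosen after seeing the data. Sites over a start could be left out only on the 13 genes of known strand. Matching by name alone kept 24 genes, and sites wholly within the span 23, without Dvl1. Merging intervals that overlap or lie less than 100 bases apart changed nothing, since the closest sites were 581 bases apart, and says nothing about stability. The motif was searched in start windows only, because no genome was used here.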
